A study of Rattus norvegicus with 34 samples.

Results

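Genes of the angiotensin, mineralocorticoid and endothelin system were examined in left ventricle (LV) and peripheral blood mononuclear cells (PBMCs) of rats with myocardial infarction (MI). The system was taken as 9 genes: Agt, Ace, Agtr1a, Agtr2, Nr3c2, Edn1, Ednra, Ednrb and Ece1. A member was a row of the array values whose annotation carries its symbol. Each of 7 members had exactly 1 row among the 29214 transcript clusters, the array's units for a gene or transcript. Ednra and Ednrb, the endothelin receptors, had no row under their symbols and were not analysed here.

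Male Wistar rats had the proximal left coronary artery tied, while the sham group was operated on without closing the artery. Tissue was taken 2 months later, and 1 Affymetrix Rat Gene 1.0 ST array was run per rat and tissue. LV comprised 6 sham, 6 small (S-MI), 6 moderate (M-MI) and 5 large (L-MI) infarcts, and PBMCs 6 sham and 5 L-MI. Whole LV was used from sham rats but the part free of visible scar from infarcted rats, a difference in sampling that cannot be told apart from the infarct. In bulk tissue, fewer cells of a type and less RNA per cell cannot be told apart. For L-MI replicate 1, the deposited note on either tissue calls the ventricle compensated, while title and infarct label place it among large infarcts. It was kept as L-MI, and values without it are given where they matter.

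The tissues carried the markers of their labels. The mean log2 signal over 12 cardiomyocyte genes lay between 12.92 and 13.08 on the LV arrays and between 6.21 and 6.36 on the PBMC arrays. That over 9 T cell genes lay between 11.57 and 11.79 in PBMCs and between 6.31 and 6.80 in LV. The median signal of an array was 6.52 to 6.61 in LV and 6.97 to 7.01 in PBMCs, which points to separate normalization, and only changes within a tissue were compared.

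These genes encode hormone systems that raise blood pressure and act on the heart. Angiotensinogen, the product of Agt, is cut into angiotensin I, and angiotensin converting enzyme (Ace) turns this into angiotensin II, which acts through the type 1 (Agtr1a) and type 2 (Agtr2) receptors. Aldosterone, made under the control of angiotensin II, acts through the mineralocorticoid receptor Nr3c2, while endothelin converting enzyme (Ece1) releases the vasoconstrictor endothelin-1 from the precursor encoded by Edn1. Inhibitors of Ace, of the type 1 receptor and of the mineralocorticoid receptor are standard treatments of heart failure.

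The sequence before the start of Edn1 is shown because Edn1 was the one member called in any comparison. It runs from 250 bases before to 50 bases after the annotated start, at chr17:22666638-22666937 of GRCr8 on the minus strand, from RefSeq. Capitals mark matches to the motifs searched, and the run is printed 5′ to 3′ along the gene.

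Edn1 promoter: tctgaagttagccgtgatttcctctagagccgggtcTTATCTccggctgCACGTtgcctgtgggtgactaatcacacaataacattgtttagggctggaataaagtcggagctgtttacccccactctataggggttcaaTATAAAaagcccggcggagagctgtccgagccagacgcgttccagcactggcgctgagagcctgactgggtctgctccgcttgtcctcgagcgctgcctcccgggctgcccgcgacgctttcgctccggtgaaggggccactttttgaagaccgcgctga

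On both strands 4 motifs were searched. The motif of GATA factors, spelled AGATAA, lay on the opposite strand of Edn1 at positions -214 to -209 from the start. The core of the hypoxia response element, spelled ACGTG, lay on the opposite strand at -201 to -197. The TATA box motif, spelled TATAAA, was matched on the strand of the gene at -110 to -105. The AP-1 motif in the spelling TGANTCA was not in the window, and the 3 matches did not overlap. Other spellings of the motifs were not searched, so a missing match does not show that a binding site is absent. Of 33469 rat promoters of this length, 11.6% held the GATA motif, 19.3% the hypoxia core, 14.2% the TATA box motif and 7.33% the AP-1 motif. Promoters of 7 of the 9 members were at hand, and among the others the TATA box motif was matched in Ace and in Agtr1a and no other match was found. A match describes letters only, and the arrays did not measure binding.

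In LV of L-MI rats, the largest difference from sham among the 7 members was that of Edn1, 1.27-fold higher, and it missed both the fold and the p threshold. Calls in LV needed a 1.3-fold change or more together with a limma adjusted p (Benjamini-Hochberg over all transcript clusters) of at most 0.05. None of the 7 members was called in L-MI against sham, where 3.22% of all transcript clusters were called. At an unadjusted p under 0.05 there were 2 members, Edn1 and Agtr1a, beside 21.5% of all transcript clusters. The members' median log2 fold change was 0.08 and that of all transcript clusters -0.01. In M-MI and in S-MI against sham no member was called and none had an unadjusted p under 0.05. In either comparison 0.0% of all transcript clusters were called, while 7.03% in M-MI and 6.33% in S-MI had an unadjusted p under 0.05.

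**Figure D1:**
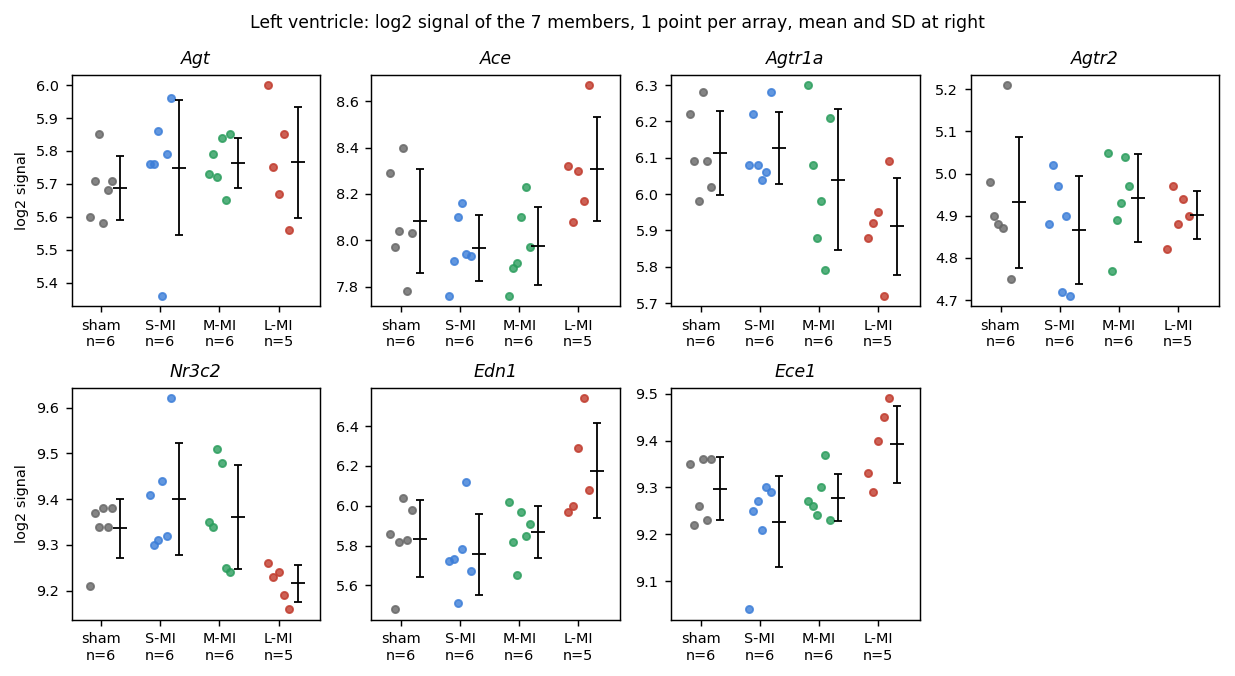
Log2 signal (y axis, a separate scale in each panel) of the 7 measured members in LV, by group (x axis). Each point is 1 rat, and the bar at its right gives mean and SD. Edn1 points of L-MI start at 5.97 and reach 6.54, and the groups overlap in most panels.

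Edn1 encodes the precursor of endothelin-1, a peptide made chiefly by endothelial cells. Its log2 signal in the 5 L-MI rats was 5.97, 6.00, 6.29, 6.54 and 6.08. In sham it ranged from 5.48 to 6.04 (median 5.85), in S-MI from 5.51 to 6.12 (median 5.73) and in M-MI from 5.65 to 6.02 (median 5.88). These are low signals for LV: only 38.0% of transcript clusters had a lower mean there than Edn1. For Agtr1a that share was 40.9% and for Agt 34.9%. L-MI replicates 3 and 4 lay above every other LV array, and the lower L-MI rats lay among the highest of the other groups. The mean was 6.18 ± 0.24 (SD, n = 5) in L-MI and 5.84 ± 0.19 (SD, n = 6) in sham, a log2 difference of 0.34 ± 0.11 (SE) with limma adjusted p = 0.0539. The 95% confidence interval of the fold ran from 1.08 to 1.48. Without L-MI replicate 1 the log2 difference was 0.39 (adjusted p = 0.042), which passed both thresholds, and it also passed without L-MI replicate 2 (0.39) or sham replicate 4 (0.38).

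Between infarct sizes, Edn1 was the only member called. It was 1.34-fold higher in L-MI than in S-MI, a log2 difference of 0.42 ± 0.11 (SE) with limma adjusted p = 0.0194, and 2.48% of all transcript clusters were called in that comparison. An unadjusted p under 0.05 was found there for 5 of the 7 members and 21.3% of all transcript clusters. Against M-MI the log2 difference was 0.31 ± 0.11 (adjusted p = 0.0995), where no member and 2.68% of all transcript clusters were called, and 4 members had an unadjusted p under 0.05 beside 18.9% of all transcript clusters. Between M-MI and S-MI no member and 0.0% were called, and no member had an unadjusted p under 0.05, beside 12.5% of all transcript clusters. From the highest mean the order was L-MI, M-MI, sham and S-MI, and no neighbours in it passed the test. The call against S-MI was lost when only those 2 groups were fitted (adjusted p = 0.0711). It was also lost without L-MI replicate 3 (log2 difference 0.39, adjusted p = 0.0544), L-MI replicate 4 (0.33, adjusted p = 0.077) or S-MI replicate 3 (0.37, below the fold threshold).

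The endothelial marker list was read in the same comparison, and the part of endothelial cells in the differences of Edn1, Ece1 and Ace was not tested. Of its 11 measured genes none was called in L-MI against sham, their median log2 fold change was -0.12, and the range of their mean level was 9.46 to 9.56 in L-MI and 9.54 to 9.69 in sham. Tek, the angiopoietin receptor, had the smallest p of the list, with a log2 fold change of -0.17 (limma adjusted p = 0.0393), followed by Tie1 at -0.16 (adjusted p = 0.0702).

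Ece1, which cuts big endothelin to the active peptide, gave 9.33, 9.29, 9.40, 9.45 and 9.49 in L-MI. It ranged from 9.22 to 9.36 in sham (median 9.31), 9.04 to 9.30 in S-MI (median 9.26) and 9.23 to 9.37 in M-MI (median 9.26). The higher L-MI rats exceeded all others, and the ranges overlapped at the lower end. The log2 difference of L-MI from sham was 0.09 ± 0.05 (SE, limma adjusted p = 0.302). Against S-MI it was 0.16 ± 0.05 with adjusted p = 0.0493, a fold of 1.12 that lies below the fold threshold.

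Ace, the converting enzyme on the endothelial surface, gave 8.32, 8.08, 8.30, 8.17 and 8.67 in L-MI. It ranged from 7.78 to 8.40 in sham (median 8.04), 7.76 to 8.16 in S-MI (median 7.94) and 7.76 to 8.23 in M-MI (median 7.93). The lowest L-MI rat lay within the ranges of all the other groups. L-MI exceeded sham by 0.22 ± 0.11 on the log2 scale (SE, limma adjusted p = 0.244, fold interval 0.997 to 1.37). It exceeded M-MI by 0.34 ± 0.11 (adjusted p = 0.0668) and S-MI by 0.34 ± 0.11 (adjusted p = 0.0622), both below the fold threshold. Without L-MI replicate 2 both differences passed, at 0.39 against M-MI (adjusted p = 0.0345) and 0.40 against S-MI (adjusted p = 0.0318), and the difference from M-MI also passed without M-MI replicate 5 (0.39).

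Agt, the source of all angiotensin peptides, is made mostly in liver. In L-MI its log2 signal was 6.00, 5.75, 5.67, 5.85 and 5.56, and in sham it ranged from 5.58 to 5.85 (median 5.70), inside the L-MI range. Group means were 5.69 in sham, 5.75 in S-MI, 5.76 in M-MI and 5.77 in L-MI. The log2 difference of L-MI from sham was 0.08 ± 0.09 (SE, limma adjusted p = 0.67), and the fold interval of 0.934 to 1.19 lies inside the fold threshold.

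Agtr1a encodes the main type 1 angiotensin receptor of rodents, a Gq-coupled receptor. Its log2 signal was 5.88, 5.92, 5.95, 5.72 and 6.09 in L-MI. It ranged from 5.98 to 6.28 in sham (median 6.09), 6.04 to 6.28 in S-MI (median 6.08) and 5.79 to 6.30 in M-MI (median 6.03). Apart from L-MI replicate 5, the L-MI rats lay below every sham and S-MI rat. The log2 difference was -0.20 ± 0.08 (SE) from sham with limma adjusted p = 0.148, and -0.21 ± 0.08 from S-MI with adjusted p = 0.129.

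Agtr2, the type 2 receptor, is abundant in the fetus and scarce in the adult heart. Its row was among the dimmest 30% of transcript clusters in LV, at 4.71 to 5.21 over the 23 arrays. L-MI differed from sham by -0.03 ± 0.07 on the log2 scale (SE, limma adjusted p = 0.876). Without a detection measure, a level above background cannot be shown for it.

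Nr3c2, the mineralocorticoid receptor, binds aldosterone and also corticosterone, the main glucocorticoid of the rat. In L-MI its log2 signal was 9.26, 9.23, 9.24, 9.19 and 9.16. It ranged from 9.21 to 9.38 in sham (median 9.35), 9.30 to 9.62 in S-MI (median 9.36) and 9.24 to 9.51 in M-MI (median 9.34). All L-MI rats lay below all S-MI rats, the only pair of LV groups without overlap for any member. In that comparison 4.63% of all transcript clusters showed no overlap. In the comparisons where no member was free of overlap, that share was 6.97% for L-MI, 0.469% for M-MI and 0.394% for S-MI against sham, 4.87% for L-MI against M-MI and 0.763% for M-MI against S-MI. The log2 difference from S-MI was -0.18 ± 0.06 (SE, limma adjusted p = 0.0565), from M-MI -0.15 ± 0.06 (adjusted p = 0.156) and from sham -0.12 ± 0.06 (adjusted p = 0.238), each smaller than the fold threshold.

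The mineralocorticoid receptor was set against the glucocorticoid receptor Nr3c1 on the same array. The log2 difference Nr3c2 minus Nr3c1 was -0.95 ± 0.03 (SD, n = 5) in L-MI, -0.86 ± 0.11 in M-MI, -0.81 ± 0.13 in S-MI and -0.92 ± 0.11 in sham (SD, n = 6 each). The shift from sham was -0.03 in L-MI (two-sided exact permutation p = 0.58, adjusted 0.58), 0.06 in M-MI (p = 0.403, adjusted 0.58) and 0.11 in S-MI (p = 0.177, adjusted 0.532), with p adjusted over these 3 tests. Without sham replicate 1, the shift in L-MI was -0.08 and passed (exact permutation p = 0.00794, adjusted 0.0238).

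**Figure D2:**
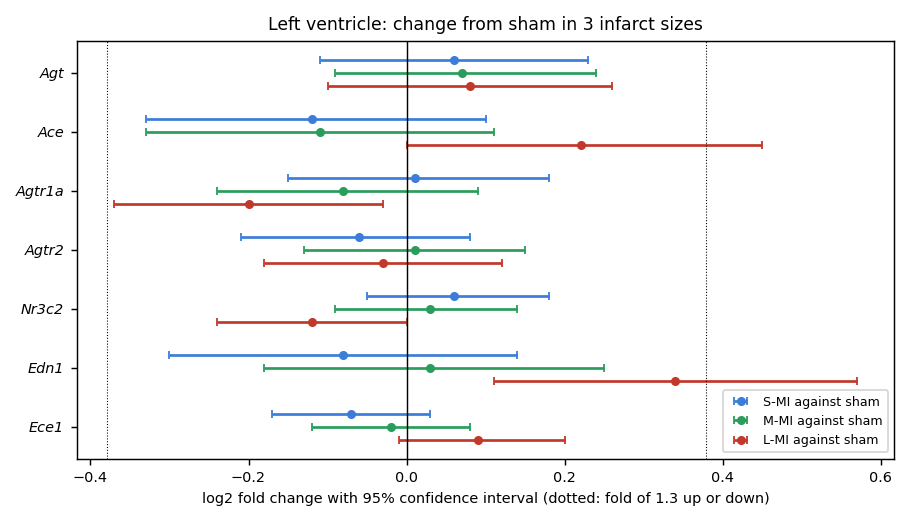
Log2 fold change (x axis) of each member (y axis) in LV of S-MI, M-MI and L-MI against sham, with the 95% confidence interval of the limma fit. Dotted lines mark the fold threshold of 1.3, and the L-MI interval of Edn1 (0.11 to 0.57) and that of Agtr1a (-0.37 to -0.03) exclude 0.

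Within groups, Ace and Ece1 varied together most. The Pearson r of their deviations from the group means over the 23 LV arrays was 0.65, that of Edn1 with Ece1 was 0.42, and Agtr2 with Nr3c2 gave the lowest value, -0.52. Arrays share RNA quality and processing, so these are descriptions. By the same measure the 15310 transcript clusters with 1 symbol were ranked, and the r that the best reach by chance was not computed. Closest to Edn1 were Bag2 (0.75), Tektip1 (0.72) and Lca5 (0.71), and to Ace were Klf13 (0.88), Dock6 (0.84) and Selenos (0.82). The closest to Ece1 were Disc1 (0.84), Mmp28 (0.81) and Bace2 (0.80), to Nr3c2 Pip5k1a (0.74), Gpr22 (0.72) and Zfp612 (0.71), and to Agt Gar1 (0.85), Rab15 (0.83) and Arpc5 (0.82). For Agtr1a they were Dmbt1 (0.78), Eif2ak4 (0.73) and Lsm8 (0.71), and for Agtr2 Pde6c (0.76), Kpna3 (0.75) and Elf4 (0.72). Of these 21 genes, Bace2 alone was called in L-MI against sham, beside 3.22% of all transcript clusters. Its log2 fold change was 0.44 (limma adjusted p = 9.94e-05).

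Of the other genes on the renin-angiotensin, mineralocorticoid and endothelin lists, 3 were called in L-MI against sham, namely Mme, Hsd11b1 and Fkbp4. Over all transcript clusters 2.08% rose and 1.14% fell in this comparison. In the renin-angiotensin list of 20 other genes, 18 were measured, and in L-MI against sham none rose and 1 fell, with a median log2 fold change of -0.05. Mme encodes neprilysin, a peptidase that degrades natriuretic peptides and processes angiotensin and endothelin peptides. Its log2 signal in L-MI was 5.75, 6.29, 5.88, 5.76 and 6.20, against 6.01 to 6.73 in sham (median 6.55), 6.26 to 6.64 in S-MI (median 6.54) and 6.06 to 6.54 in M-MI (median 6.28). Sham replicate 5, at 6.01, was the only sham rat within the L-MI range. Mme fell by 0.52 on the log2 scale in L-MI (SE 0.12, limma adjusted p = 0.00804) to a level 0.698 times that of sham, and M-MI lay between, at -0.19 from sham (adjusted p = 0.735). Atp6ap2, a part of the proton pump of acidic compartments, had the smallest p of the list, with a log2 fold change of 0.31 (adjusted p = 0.000347) and a fold of 1.24 below the threshold.

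In the mineralocorticoid list of 22 other genes, 21 were measured, of which 1 rose and 1 fell in L-MI, with a median log2 fold change of -0.05. Hsd11b1 regenerates corticosterone from its inactive form inside cells. Its log2 signal was 9.45, 9.38, 9.67, 9.31 and 9.35 in L-MI and 8.93 to 9.17 in sham (median 8.94), 8.89 to 9.16 in S-MI (median 9.05) and 8.82 to 9.05 in M-MI (median 8.97). No L-MI rat overlapped any other LV group, which held for 1.92% of all transcript clusters in either direction. It rose 1.34-fold (log2 0.42 ± 0.07 SE, limma adjusted p = 0.000214), and without L-MI replicate 3 the fold was 1.29, below the threshold, with adjusted p = 0.000929. H6pd, which supplies Hsd11b1 with reducing power, had a log2 fold change of -0.20 (adjusted p = 0.00794), also below the fold threshold.

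Fkbp4 encodes a chaperone partner of steroid receptors. Its log2 signal was 9.70, 9.73, 9.66, 9.22 and 9.61 in L-MI, against 9.99 to 10.20 in sham (median 10.09), 9.91 to 10.22 in S-MI (median 9.99) and 9.80 to 10.14 in M-MI (median 10.07). All L-MI rats lay below all others. Fkbp4 fell by 0.51 on the log2 scale (SE 0.08, limma adjusted p = 0.000199), to 0.701 times the level of sham. Sgk1, an aldosterone-induced kinase, differed by -0.13 (adjusted p = 0.5), and Tsc22d3, induced by the same receptors, by 0.14 (adjusted p = 0.621).

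**Figure D3:**
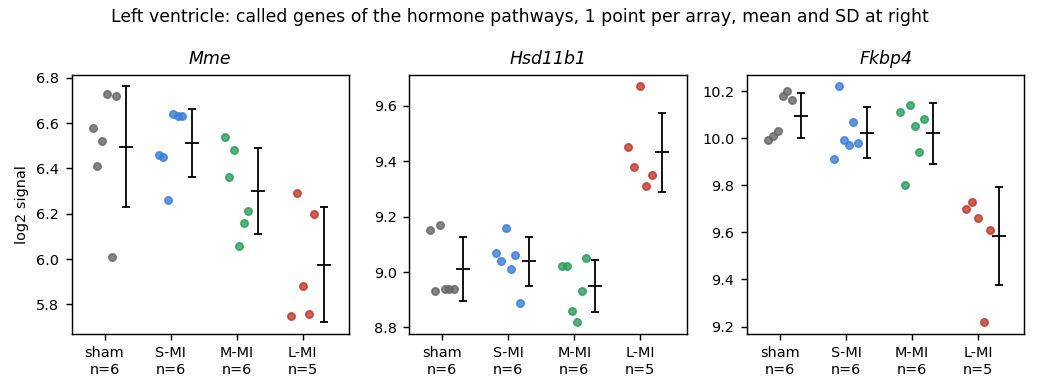
Log2 signal (y axis) in LV of the genes called in L-MI against sham in the lists around the members, by group (x axis), with 1 point per rat and mean and SD at its right. Hsd11b1 of L-MI lies above 9.3 and Fkbp4 of L-MI below 9.8, apart from all other groups.

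In the endothelin list, 8 of 9 other genes were measured and none was called, while 7 had a positive log2 fold change and the median was 0.11. Pcsk5, a proprotein convertase, had the smallest p, with 0.19 (limma adjusted p = 0.0545), and Edn3, another endothelin, had 0.14 (adjusted p = 0.341).

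All 25 genes of signalling by Gq and G12 coupled receptors were measured, and in L-MI 3 rose and none fell, with a median of 0.09. Over all transcript clusters 2.08% rose and 1.14% fell. Prkcd, a protein kinase C isoform, rose by 0.75 on the log2 scale (adjusted p = 0.000162), Prkcb, another isoform, by 0.42 (adjusted p = 0.00102) and Grk5, a receptor kinase, by 0.44 (limma adjusted p = 0.0131). The call of Grk5 was lost without L-MI replicate 4 (adjusted p = 0.0517). The G proteins and phospholipases of the list held none of these calls.

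Genes known from other work to rise with angiotensin II, aldosterone or endothelin were mostly higher in L-MI. Of 19 measured genes of the 20 listed, 12 rose in L-MI and none fell, with a median log2 fold change of 0.76 beside -0.01 for all transcript clusters, of which 2.08% rose and 1.14% fell. Postn and Spp1 had the largest values of the list. Among matrix genes, Postn stood at 3.0 (limma adjusted p = 1.05e-07), Spp1 at 2.03, Fn1 at 1.56, Col1a1 at 1.2, Lox at 0.76 and Col3a1 at 0.57. Among growth factors, Ccn2 rose by 1.63, Tgfb2 by 1.0 and Tgfb1 by 0.40, the last of which fell below the fold threshold without L-MI replicate 1, L-MI replicate 5 or sham replicate 5 (fold 1.28 to 1.29). Nppa, the atrial natriuretic peptide, rose by 1.89, Cybb, the phagocyte oxidase, by 0.87 and the monocyte attractant Ccl2 by 0.98 (adjusted p = 0.0215). The call of Ccl2 was lost without L-MI replicate 1 (adjusted p = 0.0733), L-MI replicate 4 (adjusted p = 0.0754) or sham replicate 4 (adjusted p = 0.0515). In M-MI and S-MI against sham none of the 19 was called, with medians of 0.07 and 0.05. Many other stimuli raise these genes too, and the list does not measure hormone action. It was chosen with earlier results of these data known, so the number that rose is not independent support.

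**Figure D4:**
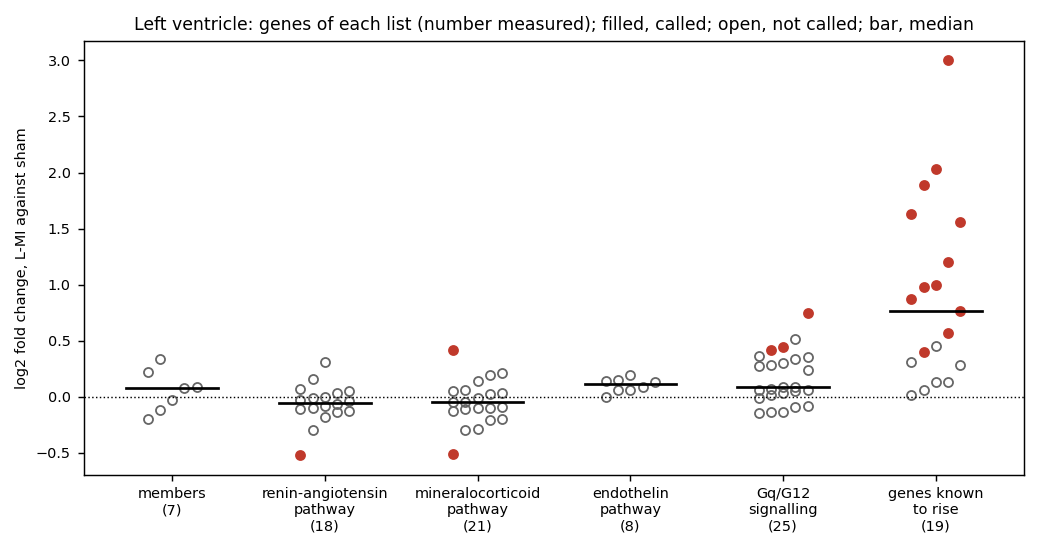
Log2 fold change of L-MI against sham in LV (y axis) for each measured gene of the members and of 5 lists (x axis, number measured in parentheses), with called genes filled and the median as a bar. The members lie between -0.20 and 0.34, and the genes known to rise reach 3.0.

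Markers of other cells moved in the same L-MI ventricles, where 2.08% of all transcript clusters rose and 1.14% fell against sham. All 10 macrophage and monocyte markers rose, with log2 fold changes of 0.65 to 0.99 and a median of 0.81. The smallest p values were those of Mrc1 at 0.84 (limma adjusted p = 5.75e-06) and Csf1r at 0.75, and the mean level of the list was 8.70 to 9.32 in L-MI and 8.12 to 8.37 in sham. Of 10 fibroblast markers 6 rose, among them Mfap5 at 1.21 and Col1a1 at 1.2, with mean levels of 9.99 to 10.46 in L-MI and 9.53 to 9.73 in sham. Of 11 smooth muscle and pericyte markers 2 rose, Tagln at 0.69 and Cnn1 at 0.43, and 4 were not above 0. Acta2 at 0.30 (limma adjusted p = 0.00162) and Kcnj8, a pericyte channel subunit, at -0.31 (adjusted p = 0.00271) stayed below the fold threshold, and mean levels were 9.48 to 9.71 in L-MI and 9.37 to 9.52 in sham. None of 12 cardiomyocyte markers was called, their mean levels were 12.92 to 13.01 in L-MI and 13.03 to 13.06 in sham, and the smallest p values were those of Ckm (-0.19) and Myh6 (-0.29). Of the 12 risen response genes, Col1a1 and Col3a1 are also on the fibroblast list. The part of these cells in the changes of Mme, Hsd11b1, Fkbp4, the kinases and the response genes was not tested. Nor was their part in the differences of the members.

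In PBMCs no member passed the PBMC thresholds of a 1.2-fold change and an unadjusted p of at most 0.05, where 0.924% of all transcript clusters were called (0.486% up and 0.438% down). No member had an unadjusted limma p under 0.05, as 3.77% of all transcript clusters had, and no member was called by any other setting tried. The log2 differences of L-MI from sham were 0.10 for Agtr2 (two-sided exact permutation p = 0.186), 0.08 for Agt (p = 0.229), 0.06 for Agtr1a (p = 0.407) and 0.04 for Ece1 (p = 0.528). They were -0.09 for Edn1 (exact permutation p = 0.312), 0.00 for Ace (p = 0.939) and 0.00 for Nr3c2 (p = 0.987). All limma adjusted p values of the 7 members were 1.0. Ranges of L-MI and sham overlapped for each of the 7. The share of all transcript clusters without overlap was not computed for PBMCs. Red cell markers varied widely between arrays, with means over 4 genes of 7.84 to 11.74 in L-MI and 8.07 to 10.82 in sham. All 5 measured B cell markers were lower in L-MI (median log2 fold change -0.22), and none was called. The part of cell make-up in the PBMC comparisons was not tested.

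The intervals differed in width between members. For Nr3c2 the 5 L-MI values were 7.01, 6.46, 6.99, 7.08 and 7.37, the sham range was 6.72 to 7.16 (median 7.0), and the fold interval was 0.822 to 1.22. For Ece1 the L-MI values were 8.62, 8.51, 8.67, 8.54 and 8.65, the sham range was 8.39 to 8.72 (median 8.56), and the fold interval was 0.934 to 1.13. For Agt the L-MI values were 6.56, 6.58, 6.43, 6.79 and 6.65 and the sham range 6.41 to 6.63 (median 6.51). Ace, Agtr1a, Agtr2 and Edn1 were among the dimmest 30% of transcript clusters in PBMCs, with group means from 5.00 to 5.54, and no detection measure says whether they were expressed there.

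**Figure D5:**
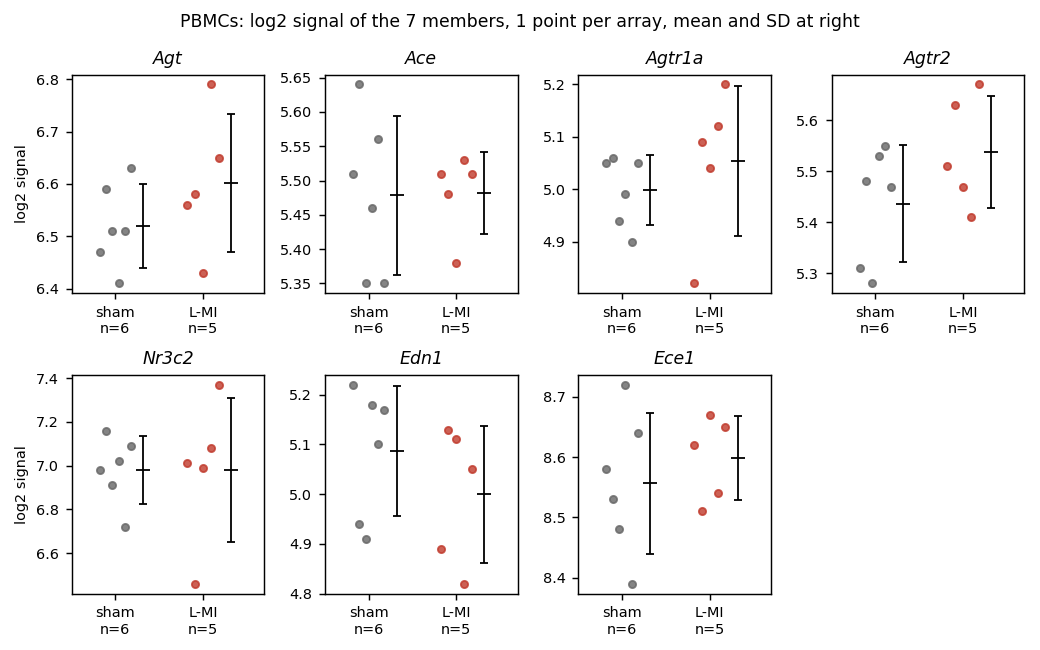
Log2 signal (y axis, a separate scale in each panel) of the 7 members in PBMCs of sham and L-MI rats (x axis), with 1 point per rat and mean and SD at its right. The groups overlap in each panel.

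The effect of the large infarct was also compared between the tissues by an interaction term over 22 arrays, where 2.55% of all transcript clusters and none of the members passed an adjusted p of 0.05. The largest difference was that of Edn1, whose log2 change was higher in LV than in PBMCs by 0.43 ± 0.15 (SE, limma adjusted p = 0.147). For Agtr1a it was lower in LV by a log2 difference of -0.26 ± 0.10 (limma adjusted p = 0.228). These 2 members had an unadjusted p under 0.05 in this comparison, as did 13.2% of all transcript clusters. None of the 91 measured genes of the renin-angiotensin, mineralocorticoid, endothelin, Gq/G12 and response lists was called in PBMCs, beside 0.924% of all transcript clusters. Of these genes 3 had an unadjusted limma p under 0.05, as had 3.77% of all transcript clusters. Prcp, a carboxypeptidase that cuts angiotensin peptides, was the one of the 3 on the renin-angiotensin list. Its log2 fold change was 0.21, a fold of 1.16 below the threshold.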

How the data were processed

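RNA of 23 left ventricles and 11 PBMC samples was hybridized to Affymetrix Rat Gene 1.0 ST arrays. Values were used as the authors deposited them: log2 signals from RMA, with Partek also named in the submitters' notes, versions not given in the sources used here. RMA corrects background, equalizes arrays by quantiles and sums probes. No source gives the base of the logarithm, and base 2 was assumed, as RMA returns it. Raw files were not used here. Precision is limited by the number of rats per group.

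Of 29214 transcript clusters, 15310 carry 1 symbol in the platform annotation, 323 several and 13581 none or are unlisted. Linear models with a mean per group were fitted over all of them with limma 3.58.1 in R 4.3.3: LV over 23 arrays (fold of at least 1.3, adjusted p of at most 0.05), PBMCs over 11 (fold 1.2, unadjusted p 0.05) and the tissue difference over 22 (adjusted p 0.05, arrays taken as independent, since which share a rat is not stated). Exact permutation tests were run with scipy 1.17.1 under Python 3.11.15, and figures drawn with matplotlib 3.10.9. The fits were tested on simulated data. The planned pair of Ednra and Ednrb was not tested, and some planned items are not reported here.

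The members, the 5 pathway lists and the 13 marker lists were chosen with earlier results of these data known. Named were all members, called genes of each pathway list or otherwise its 2 with the smallest p, the 3 transcript clusters most like each member, and 2 markers per list described, while Atp6ap2, H6pd, Sgk1, Tsc22d3, Cnn1, Kcnj8, Prcp, Cma1 and Cpa3 were picked after their values had been seen. Tried besides were fits without variance moderation, with a trend, with weighted arrays, on the 2 compared groups alone, with replicate number as a block, and without each array in turn. Values were also centred on array medians, quantile-normalized again, or cleared of the dimmest 30%, and the thresholds were varied.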

Additional observations from a re-analysis of the deposited data

Results flagged for a closer look

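In each group of 5 or 6 arrays, the highest and lowest value of the 7 members and of Mme, Hsd11b1 and Fkbp4 was checked for a gap to its neighbour that is large against the group's range (Dixon's test). Of 60 groups 6 held such a value, where chance gives about 1 in 20. In LV, Agt was 5.36 in S-MI replicate 4, with the others at 5.76 to 5.96. Nr3c2 was 9.21 in sham replicate 1, with the others at 9.34 to 9.38, and this array is the one whose removal moved the comparison of Nr3c2 with Nr3c1. Ece1 was 9.04 in S-MI replicate 1 (others 9.21 to 9.30), and Fkbp4 was 9.22 in L-MI replicate 4 (others 9.61 to 9.73). In PBMCs of L-MI, Mme was 4.44 in replicate 4 (others 4.32 to 4.34) and Fkbp4 was 8.91 in replicate 1 (others 9.49 to 9.58).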

How the results depend on the processing

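The 56 results for single members (7 members in 8 comparisons) gave 1716 values under the alternatives, of which 1704 kept their side of the thresholds, 5 lost and 7 gained a call, and none that was called changed sign. Among values not called either way, 57 changed sign. Without a fold threshold 2 members (Edn1 and Ece1) were called in L-MI against S-MI, and with a fold of at least 1.5 or only those 2 groups fitted 0 were. With single arrays left out, the number of members called was 0 to 1 in L-MI against sham, 0 to 1 in L-MI against M-MI and 0 to 2 in L-MI against S-MI, and 0 in each of the other comparisons. The number that rose in the mineralocorticoid list was 0 to 1 in L-MI against sham, lost without L-MI replicate 3. The shift of Nr3c2 minus Nr3c1 in L-MI ran from -0.08 (without sham replicate 1) to -0.01. Leaving out the dimmest 30% removed Agtr2 in LV, 4 members in PBMCs, and Agtr1a, Agtr2 and Edn1 in the comparison between tissues. No value was had for these members there. Averaging the rows of a symbol was not run, since each member has 1. With the replicate number as a block, Edn1 differed by 0.35 between L-MI and sham (adjusted p = 0.0428, below the fold threshold) and by 0.43 between L-MI and S-MI (adjusted p = 0.0173), and no member's call changed. Deviations of same-numbered LV arrays correlated between -0.26 and 0.26. In PBMCs the block raised the number of transcript clusters called from 270 to 457. No source used here says what same-numbered samples share, and whether they share a batch was not tested.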

Other observations

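Mast cell proteases of the renin-angiotensin list stood out in the blood of a single rat. Cma1, a chymase of the mast cell, gave a log2 signal of 8.10 in PBMCs of L-MI replicate 5, with 5.02 to 5.17 in the other L-MI rats and 4.74 to 5.22 in sham. Cpa3, the mast cell carboxypeptidase, gave 10.13 in the same array, with 4.54 to 5.46 in the other L-MI rats and 4.59 to 5.22 in sham. Both are on the list of 8 mast cell markers. The mean over the other 6 was 7.03 there, 5.77 to 6.19 in the other L-MI rats and 5.73 to 6.0 in sham. In PBMCs of L-MI against sham 1 of the 8 markers was called, beside 0.924% of all transcript clusters. All 8 had a positive log2 fold change, with a median of 0.42. Neither Cma1 nor Cpa3 was called (limma adjusted p = 1.0 for each), and both were picked after their values had been seen. In LV their log2 fold changes in L-MI were -0.18 for Cma1 (limma adjusted p = 0.469) and -0.30 for Cpa3 (adjusted p = 0.181).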
